A study of Mus musculus with 4 samples.

Results

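The Hox genes of the 4 mammalian clusters were examined in mouse back skin epidermis, in wild type animals and in animals lacking LDB2. All genes of the deposited table whose symbol is Hox, a cluster letter from a to d and a number were taken, except 1 gene that the rule leaves out. This gave 27 of 17721 rows: 8 from HoxA, 9 from HoxB, 5 from HoxC and 5 from HoxD. The RefSeq gene table holds 38 genes under the same rule, and the other 11 had no row under their symbol in the deposited table. The samples were 2 wild type and 2 LDB2-/- libraries, all from C57BL/6 mice at postnatal day 63, with no other allele or agent named in the labels. Dispase, a protease used to separate epidermis from dermis, was applied to the skin before total RNA was extracted for sequencing. How the LDB2-/- allele was made, and whether the 2 libraries of a genotype came from separate animals, is not given in the sources used here, so p-values measure only the spread between these libraries.

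Hox genes encode homeodomain transcription factors that give cells along the head-to-tail axis their positional identity. Genes at the 3′ end of a cluster, with low numbers, are switched on earlier and farther forward in the embryo than genes at the 5′ end, and genes with the same number in different clusters (a paralog group) are close relatives with overlapping roles. In adult skin, fibroblasts and keratinocytes keep a Hox pattern that reflects their place on the body, and HOX proteins bind DNA together with PBX and MEIS partners. LDB2 is a LIM domain binding protein, a cofactor that bridges LIM-homeodomain and other transcription factors.

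The clusters lie on chromosome 6 (HoxA), 11 (HoxB), 15 (HoxC) and 2 (HoxD). Upstream sequence is shown for 5 genes that moved in opposite directions between the genotypes, Hoxa2 and Hoxa5 from a cluster that fell, and Hoxb8, Hoxd4 and Hoxd8, which rose. Each is the 250 bases before the RefSeq transcription start (GRCm38.p6), 5′ to 3′ on the gene's own strand, and none of the 5 windows held an annotated GENCODE exon. The windows are chr6:52164832-52165081 (minus strand) for Hoxa2, chr6:52204588-52204837 (minus) for Hoxa5, chr11:96281655-96281904 (plus) for Hoxb8, chr2:74721728-74721977 (plus) for Hoxd4 and chr2:74704365-74704614 (plus) for Hoxd8. Capitals mark matches, on either strand, to any of 6 short motifs.
Hoxa2: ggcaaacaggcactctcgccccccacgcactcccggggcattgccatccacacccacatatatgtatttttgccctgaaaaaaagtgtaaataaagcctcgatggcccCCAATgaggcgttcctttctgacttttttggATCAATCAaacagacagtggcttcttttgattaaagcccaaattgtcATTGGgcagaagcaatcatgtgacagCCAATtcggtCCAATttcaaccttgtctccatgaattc
Hoxa5: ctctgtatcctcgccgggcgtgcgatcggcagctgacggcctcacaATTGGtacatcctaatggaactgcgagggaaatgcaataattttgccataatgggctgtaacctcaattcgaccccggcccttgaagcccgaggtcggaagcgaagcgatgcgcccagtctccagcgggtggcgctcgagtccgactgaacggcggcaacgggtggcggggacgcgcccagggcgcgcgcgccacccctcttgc
Hoxb8: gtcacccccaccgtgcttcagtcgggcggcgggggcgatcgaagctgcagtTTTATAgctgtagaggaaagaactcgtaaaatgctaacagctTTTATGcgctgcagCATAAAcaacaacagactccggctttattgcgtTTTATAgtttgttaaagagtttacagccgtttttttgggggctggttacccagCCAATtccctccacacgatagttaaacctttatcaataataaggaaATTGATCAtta
Hoxd4: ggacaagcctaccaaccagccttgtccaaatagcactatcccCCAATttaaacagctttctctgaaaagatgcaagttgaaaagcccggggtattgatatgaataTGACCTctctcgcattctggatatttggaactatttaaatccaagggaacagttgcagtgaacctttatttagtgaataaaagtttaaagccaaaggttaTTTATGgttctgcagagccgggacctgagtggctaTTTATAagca
Hoxd8: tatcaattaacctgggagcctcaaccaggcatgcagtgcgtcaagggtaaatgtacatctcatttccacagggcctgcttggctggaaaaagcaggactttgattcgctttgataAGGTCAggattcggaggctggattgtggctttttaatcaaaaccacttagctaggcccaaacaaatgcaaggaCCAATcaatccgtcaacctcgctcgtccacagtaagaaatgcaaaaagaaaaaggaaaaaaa
No matches shared a base in these windows. The RefSeq promoter table held 15 of the 27 members, which were set beside all 27025 promoters of that table, with the first window listed for each gene. Unlike the windows shown, those of Hoxa3, Hoxa6, Hoxa7, Hoxb1, Hoxc4, Hoxd3, Hoxd9 and Hoxd11 overlapped annotated GENCODE exons. TTTATG, the core bound by CDX factors, was in 5 of 15 (Hoxa7, Hoxb8, Hoxd3, Hoxd4 and Hoxd11) and in 11.1% of all promoters. AGGTCA, the retinoid receptor half-site, was in 5 of 15 (Hoxb4, Hoxc4, Hoxd3, Hoxd4 and Hoxd8) against 13.8%. TGATNNAT, a joint HOX and PBX site, was in 3 of 15 (Hoxa2, Hoxb1 and Hoxb8) against 7.91%. CCAAT was in 8 of 15 against 34.5%, TATAAA in 2 of 15 against 13.0%, and TAATTA, the homeodomain palindrome, in 1 of 15 against 4.90%. The 2 promoters with TATAAA were those of Hoxb8 and Hoxd4, which rose, while that of Hoxd8, which also rose, had no match. Median GC content was 54.8% in the member promoters and 52.0% in all. The second window listed for Hoxd11, the one whose start was found in a GENCODE transcript, held TGATNNAT and TAATTA but not TTTATG. The starts of the Hoxa3 and Hoxa7 windows were not found in a GENCODE transcript either. These matches are letters in a window, with no measurement of binding.

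Total counts ran from 54095522 to 68436842 per library. Ldb2 itself had 0 and 8 counts in wild type and 0 in both LDB2-/- libraries, where a count of 0 allows up to 3 counts, so its level did not check the labels. The genotypes differed widely: of 12400 genes tested, 57.2% passed an adjusted p of 0.05 (edgeR's quasi-likelihood test with Benjamini-Hochberg adjustment), 28.4% higher and 28.8% lower in LDB2-/-. Markers of several cell types moved with genotype. All 14 genes of a hair matrix, shaft and inner root sheath list were higher (summed FPKM 93.7 to 328.9 in wild type and 41509 to 44927 in LDB2-/-), and all 10 interfollicular keratinocyte genes were lower (24944 to 29115 against 6158 to 6508). Of 8 tested genes of a dermal fibroblast list, 6 were higher and 2 lower (sums 212.3 to 245.3 against 137.0 to 152.4). The 2 lower genes, Vim (117.5 and 146.8 against 49.4 and 57.4 FPKM) and Thy1 (70.6 and 79.2 against 19.2 and 19.1 FPKM), made up most of the wild type sums. The sum therefore fell although most tested genes rose, and it is not read as a level of fibroblasts. All 4 tested dermal papilla genes were higher (7.16 to 8.05 against 35.4 to 40.9), with Sox2 at 0 in LDB2-/-. All 7 melanocyte genes were higher (16.2 to 26.9 against 595.4 to 677.7), as were all 7 tested skeletal muscle genes (4.65 to 6.65 against 39.8 to 43.8) and all 5 tested endothelial genes (1.87 to 3.18 against 20.7 to 20.9, Kdr at 0 in LDB2-/-). The 1 tested adipocyte gene was lower (sums 1.19 to 1.37 against 0.227 to 0.236, with Adipoq at 0 in wild type and Plin1 at 0 in LDB2-/-), 2 of 3 Schwann cell genes were higher and 1 lower (14.8 to 15.0 against 8.93 to 11.0), and 4 of 6 immune genes were lower and 1 higher (641.0 to 685.4 against 348.1 to 425.7). Mbp, the lower Schwann cell gene, made up most of the wild type Schwann cell sums (12.8 and 13.1 FPKM in wild type, 3.70 and 2.71 FPKM in LDB2-/-). Genes were tested if they reached 1 FPKM in at least 2 libraries. All 5 tested endothelial genes and all tested muscle genes except Mylpf passed this filter through LDB2-/- alone. So did Crabp1 and Trps1 (dermal papilla), Msx1 and Shh (hair), Tyr and Sox10 (melanocyte), and Prx and S100b (Schwann cell). Cidec (adipocyte) passed through wild type alone. For these genes the direction was close to required, while the sums include untested genes. The part of these shifts in the Hox results was not tested.

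The 4 clusters did not move together. In LDB2-/- skin the tested HoxA members all fell, the HoxD members that could be tested rose, and HoxB moved in both directions. Of the tested HoxC members, only Hoxc4 passed the test. Of the 27 members, 21 reached 1 FPKM (fragments per kilobase, scaled to depth, as the authors give it) in at least 2 libraries and were tested. Among those 21, 5 were higher, 9 lower and 7 not called, so 66.7% were called beside 57.2% of all genes tested. Their median log2 fold change was -0.40, with a range from -3.09 to 2.62, beside a median of -0.01 for all genes tested. The level did not overlap between genotypes for 21 of all 27 members, 9 higher and 12 lower, beside 73.2% of all rows, and for 18 of the 21 tested, beside 82.5% of all genes tested. Without the filter, 7 members were higher and 9 lower, beside 19.7% and 21.1% of all rows. In bulk RNA, fewer cells of a type and less RNA per cell cannot be told apart. With 2 libraries against 2, an exact permutation test of a single value cannot go below p = 0.333, so calls rest on the model fitted across all genes. The filter passed 4 members, all from HoxA, through wild type alone, and 1, Hoxd4, through LDB2-/- alone, and a gene that passed this way had to differ. Just inside it was Hoxd4, at 1.40 and 1.06 FPKM in LDB2-/-, and of the members described below that stayed outside, Hoxd9 came nearest, at 0.493 and 0.631 FPKM in LDB2-/-.

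**Figure D1:**
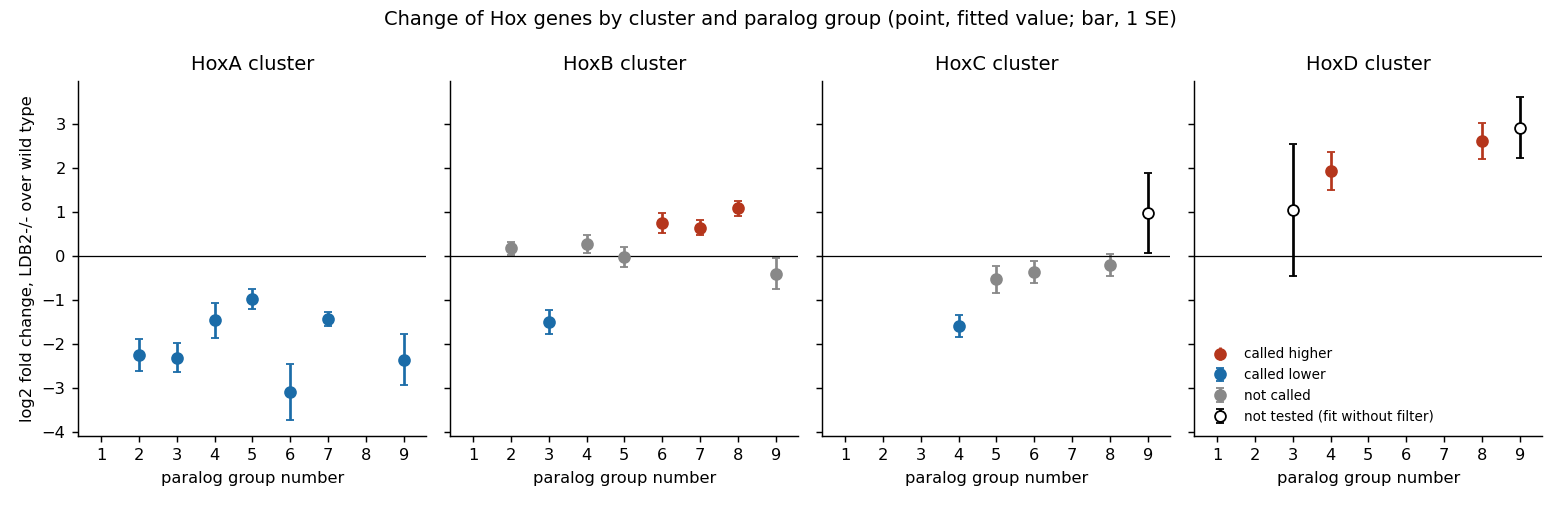
Log2 fold change of the members described here, LDB2-/- over wild type (y axis), against its paralog group number (x axis), with 1 panel per cluster; points are fitted values, bars 1 SE, and open points are members outside the filter, fitted without it. All 7 HoxA points lie below 0 and the Hoxd4, Hoxd8 and Hoxd9 points lie above 1.9, while HoxB and HoxC points fall on both sides; Hoxb1 and Hoxd11 are left out because they had 0 to 2 counts in wild type.

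Summed over members, HoxA held 53.8 and 47.2 FPKM in the 2 wild type libraries and 15.9 and 13.1 FPKM in the 2 LDB2-/- libraries, a 3.48-fold lower mean. HoxB held 63.2 and 52.3 FPKM against 63.9 and 61.3 FPKM, overlapping between genotypes. HoxC held 16.5 and 13.5 FPKM against 8.83 and 7.99 FPKM, a 1.78-fold lower mean. The smallest cluster sum, HoxD, was 2.29 and 1.07 FPKM in wild type and 8.20 and 7.02 FPKM in LDB2-/-, a 4.52-fold higher mean. Thus HoxA made up 39.6% and 41.4% of the FPKM of the 27 members in wild type against 16.4% and 14.6% in LDB2-/-. The HoxD share went from 1.69% and 0.942% to 8.47% and 7.85%. HoxB took 46.6% and 45.9% in wild type against 66.0% and 68.6% in LDB2-/-. By counts per 1000000 reads scaled with TMM factors (CPM below), which correct for library composition, the HoxA fold was 2.81 lower, HoxC 1.42 lower, HoxB 1.28 higher and HoxD 5.41 higher. The HoxB sums did not overlap on this scale, at 112.8 and 89.3 CPM in wild type and 126.4 and 133.2 CPM in LDB2-/-. The sum over all 27 members was 135.7 and 114.0 FPKM in wild type and 96.8 and 89.4 FPKM in LDB2-/-, a 1.34-fold lower mean without overlap. By CPM that sum overlapped between genotypes, at 246.4 and 198.1 CPM in wild type and 200.5 and 199.4 CPM in LDB2-/-. The order of the clusters by summed FPKM was HoxB, HoxA, HoxC, HoxD in both genotypes. These sums and shares and this order leave out the 1 gene excluded by the rule, so they do not describe whole clusters. By the median FPKM of all members, HoxC stood above HoxA in wild type (3.93 against 3.26) and in LDB2-/- (1.04 against 0.658), and HoxD was last in both (0.092 and 0.562). The median over tested members alone gave another order, since for HoxD it rests on 2 of 5 members, of which Hoxd4 passed the filter through LDB2-/- only. On that measure HoxC (4.17) stood above HoxA (3.70) in wild type, and in LDB2-/- HoxD (3.44) ranked 2 and HoxA (0.722) ranked 4.

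**Figure D2:**
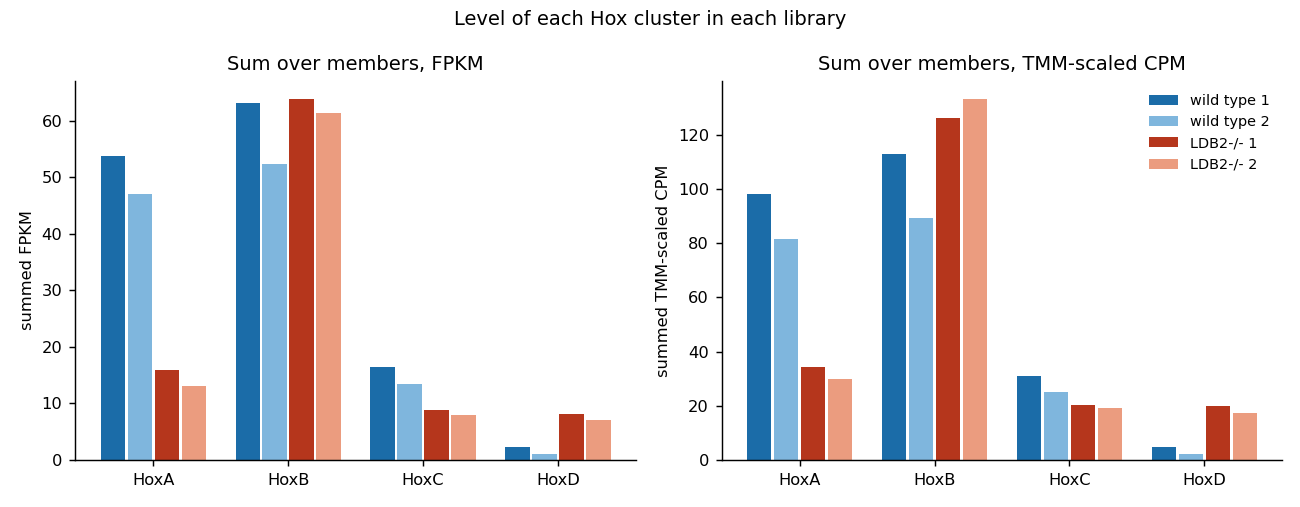
Summed level of the members of each cluster in each library, as FPKM (left) and as TMM-scaled CPM (right), 1 bar per library. HoxA bars drop from 53.8 and 47.2 FPKM to 15.9 and 13.1 FPKM and HoxD bars rise from 2.29 and 1.07 FPKM to 8.20 and 7.02 FPKM.

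All 7 tested HoxA genes were called lower in LDB2-/- (median log2 fold change -2.25). In all 7 both LDB2-/- libraries lay below both wild type libraries, beside 82.5% of tested genes without overlap in either direction and 28.8% called lower. The filter passed Hoxa2, Hoxa3, Hoxa6 and Hoxa9 through wild type alone, so a lower value was close to required of those 4. The 7 calls remained 7 in 13 of 15 alternative analyses, fell to 6 without wild type replicate 1 and to 5 with the crossed replicate pairs as a block. The genes lie side by side on the minus strand of chromosome 6, from Hoxa2 at 52162417-52164831 to Hoxa9 at 52223097-52227370 (GRCm38.p6). The annotated Hoxa3 span covers Hoxa4, Hoxa5 and Hoxa6, and the strand setting of the counting is not given in the sources used here, so reads in shared or antisense sequence could not be assigned to 1 gene with certainty.

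Hoxa7 was the most abundant member in wild type epidermis by mean FPKM, with 22.0 and 18.9 FPKM against 6.02 and 6.05 FPKM in LDB2-/-. It encodes a factor reported to restrain a transglutaminase gene in cultured keratinocytes. By normalised count it gave 39.6 and 33.3 CPM in wild type and 13.0 and 13.8 CPM in LDB2-/-. Both LDB2-/- values lay far below both wild type values, and the fit gave a log2 fold change of -1.44 (SE 0.16, edgeR adjusted p = 0.000955), 2.71-fold lower. Hoxa5, which patterns the lower neck and the airways, gave 25.6 and 20.4 CPM in wild type and 13.5 and 9.88 CPM in LDB2-/-. Its log2 fold change of -0.98 (SE 0.23, edgeR adjusted p = 0.0131) was the smallest of the cluster, and its groups did not overlap.

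Hoxa2, known for patterning the second pharyngeal arch, gave 7.19 and 6.98 CPM in wild type and 1.03 and 1.93 CPM in LDB2-/-. The log2 fold change was -2.25 (SE 0.37, edgeR adjusted p = 0.00383), with close agreement between the wild type libraries and a spread of nearly 1 CPM between the LDB2-/- libraries. Hoxa3, needed for the thymus and parathyroid, gave 9.02 and 8.17 CPM against 2.18 and 1.28 CPM. It fell 4.99-fold (log2 fold change -2.32, SE 0.33, edgeR adjusted p = 0.00244), with no overlap. Hoxa9, a partner of MEIS1 in leukaemia, gave 8.75 and 5.54 CPM in wild type and 2.14 and 0.672 CPM in LDB2-/-. Its libraries varied more within each genotype, and it fell by 2.36 on the log2 scale (SE 0.58, edgeR adjusted p = 0.0161). With the crossed replicate pairs as a block the adjusted p was 0.0523, which ended the call.

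Hoxa4, which acts in neck vertebra identity, gave 4.50 and 3.37 CPM in wild type and 1.83 and 1.03 CPM in LDB2-/-. Its log2 fold change was -1.47 (SE 0.39, edgeR adjusted p = 0.0222), and without wild type replicate 1 it was -1.24 with an adjusted p of 0.0942. Hoxa6 rested on 72 and 125 counts in wild type against 12 and 6 counts in LDB2-/-, or 0.971 and 1.93 CPM against 0.242 and 0.101 CPM. It had the strongest fitted fall of the tested members, 8.54-fold (log2 fold change -3.09, SE 0.63, edgeR adjusted p = 0.00869), at low counts in LDB2-/-.

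**Figure D3:**
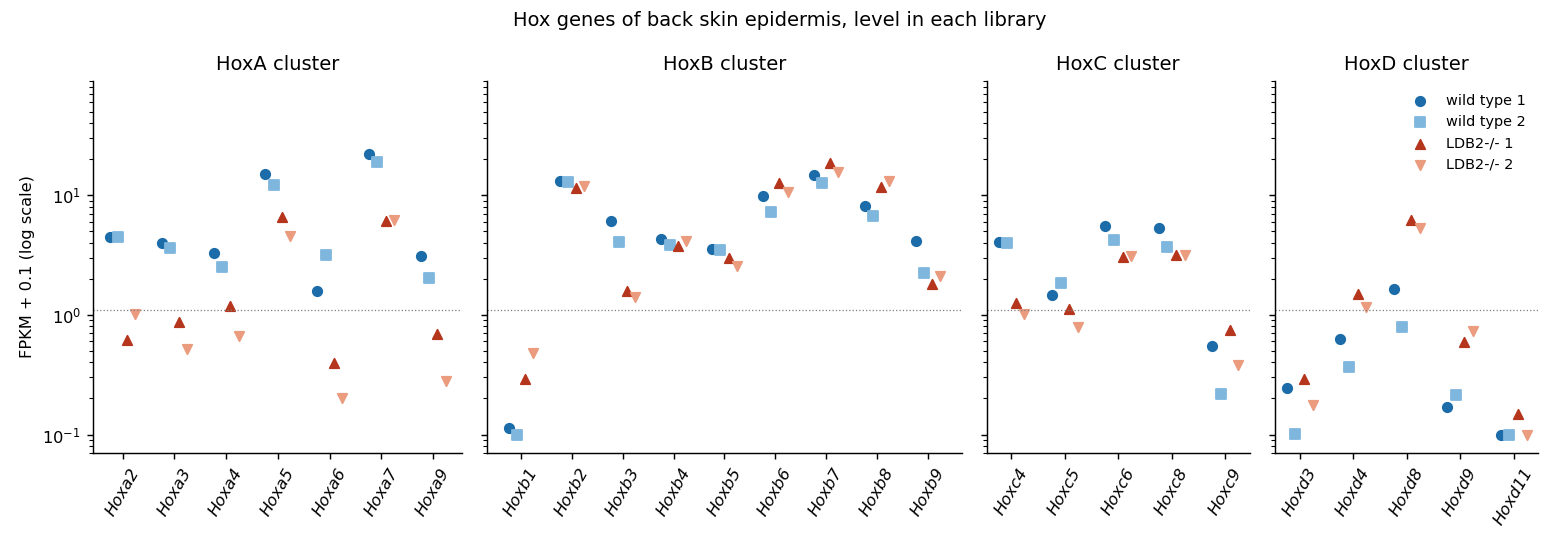
Level of the members described here in each library (FPKM + 0.1, log scale), with 1 panel per cluster, genes in order of paralog number, 1 symbol per library and a dotted line at 1 FPKM. For Hoxa7 the wild type points sit at 22.0 and 18.9 FPKM and the LDB2-/- points at 6.02 and 6.05 FPKM, and for Hoxd8 the order is turned, at 1.55 and 0.694 against 6.06 and 5.25 FPKM.

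HoxB moved in both directions. Of 8 tested genes, the neighbours Hoxb6, Hoxb7 and Hoxb8 were called higher in LDB2-/- and Hoxb3 lower, beside 28.4% higher and 28.8% lower among all genes tested. Hoxb2, Hoxb4, Hoxb5 and Hoxb9 were not called, with a median log2 fold change of 0.22 over the 8. The genes lie on the plus strand of chromosome 11, in the order Hoxb9 (96271330-96276595), Hoxb8 (96279401-96285325), Hoxb7 (96285604-96290163) and Hoxb6 (96292814-96301569) from the 5′ end. The Hoxb8 call held in all 15 alternative analyses, those of Hoxb7 and Hoxb6 in 10 and 9 of them.

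Hoxb8 gave 19.5 and 15.8 CPM in wild type and 34.0 and 40.8 CPM in LDB2-/-. Known outside the skin for a grooming defect when lost, it rose 2.11-fold (log2 fold change 1.08, SE 0.18, edgeR adjusted p = 0.00382), with no overlap. Hoxb7 gave 17.2 and 14.3 CPM in wild type and 26.0 and 23.1 CPM in LDB2-/-. It rose 1.56-fold (log2 fold change 0.64, SE 0.17, edgeR adjusted p = 0.0223) and was the most abundant member in LDB2-/- by mean FPKM, 17.0 FPKM. Hoxb6, a marker of lateral plate mesoderm in the embryo, gave 11.9 and 8.60 CPM against 18.2 and 16.3 CPM. It rose 1.68-fold (log2 fold change 0.75, SE 0.22, edgeR adjusted p = 0.0310). Scaling by the library total alone moved the median of all tested genes by -0.32 on the log2 scale. The log2 fold changes of Hoxb6 and Hoxb7 were then 0.44 and 0.33, and neither was called (adjusted p = 0.145 and 0.164). Leaving out wild type replicate 2 (adjusted p = 0.139 and 0.113) or LDB2-/- replicate 1 (0.0698 and 0.0664) also ended both calls.

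Hoxb3, which acts in hindbrain and pharyngeal arch patterning, was the 1 HoxB gene called lower. It gave 18.7 and 11.9 CPM in wild type and 5.58 and 5.24 CPM in LDB2-/-. The groups did not overlap, and it fell 2.83-fold (log2 fold change -1.50, SE 0.27, edgeR adjusted p = 0.00588), a call kept in all 15 alternatives. Its annotated span (96307101-96347930) contains Hoxb4, which gave 10.03 and 8.70 CPM against 10.5 and 12.2 CPM. Hoxb4, known for expanding blood stem cells when overexpressed, was not called (log2 fold change 0.28, SE 0.21, edgeR adjusted p = 0.290). Hoxb2 gave 19.5 and 19.0 CPM in wild type and 20.5 and 22.8 CPM in LDB2-/-, with no call (0.17, SE 0.15, edgeR adjusted p = 0.361). The fitted values of Hoxb2 and Hoxb4 were both negative, -0.15 and -0.045, with scaling by the library total alone, so no direction is given for them.

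Hoxb5 gave 5.99 and 5.77 CPM in wild type and 6.10 and 5.43 CPM in LDB2-/-, a log2 fold change of -0.03 (SE 0.22, edgeR adjusted p = 0.921). Hoxb9, from the 5′ end, gave 9.97 and 5.23 CPM against 5.08 and 6.40 CPM, and its groups overlapped (-0.40, SE 0.36, edgeR adjusted p = 0.367). Hoxb1, a gene of the hindbrain segment that gives rise to the facial nerve, had 2 and 0 counts in wild type against 22 and 55 counts in LDB2-/-. It was below the filter. The summed counts, 77 against 2, gave a ratio of 49.0 by TMM-scaled library size, with an exact 95% interval from 13.1 to 411.5 that covers counting error only. Its fit without a filter had an edgeR adjusted p of 0.0371, beside 40.8% of 17721 genes called in that fit.

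Among the members used here, those of HoxC had the fewest calls. Of 4 tested HoxC members, Hoxc4 was called lower, beside 28.8% of all genes tested. Hoxc5, Hoxc6 and Hoxc8 were not called, with a median log2 fold change of -0.45 over the 4. Hoxc4, the gene at the 3′ end of the cluster on chromosome 15 (103018097-103036856, plus strand), gave 7.27 and 6.95 CPM in wild type and 2.54 and 2.15 CPM in LDB2-/-. It fell 3.03-fold (log2 fold change -1.60, SE 0.25, edgeR adjusted p = 0.0033), with no overlap and a call in all 15 alternatives. Hoxc5 gave 3.44 and 4.27 CPM against 3.12 and 2.20 CPM (-0.54, SE 0.31, edgeR adjusted p = 0.193). Hoxc6, a gene of the chest vertebrae, gave 8.02 and 5.91 CPM against 5.18 and 5.61 CPM (-0.37, SE 0.25, edgeR adjusted p = 0.253). Neither gene overlapped between genotypes, yet neither passed. With limma on log2(FPKM + 1) Hoxc6 was called lower (-0.53, adjusted p = 0.0359). Hoxc8, which shapes the lower ribs, gave 11.4 and 7.75 CPM against 8.06 and 8.57 CPM, so the LDB2-/- libraries lay between the wild type ones (-0.20, SE 0.25, edgeR adjusted p = 0.521). Hoxc9 had 53 and 12 counts in wild type against 62 and 34 counts in LDB2-/-, was not tested, and was not called without a filter (adjusted p = 0.427).

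HoxD was the cluster with the lowest level in wild type and the only one whose tested members all rose. Both of its tested members were called higher, beside 28.4% of all genes tested, and Hoxd4 passed the filter through LDB2-/- alone. Hoxd8 had 217 and 84 counts in wild type against 683 and 736 counts in LDB2-/-, or 2.93 and 1.3 CPM against 13.8 and 12.4 CPM. It rose 6.16-fold (log2 fold change 2.62, SE 0.41, edgeR adjusted p = 0.00334), and the groups did not overlap although the wild type libraries differed from each other by more than the LDB2-/- ones in proportion. By mean FPKM it moved from place 20 of 27 in wild type to place 6 in LDB2-/-. Hoxd4, a gene of the upper neck vertebrae, gave 1.25 and 0.619 CPM in wild type and 3.99 and 3.19 CPM in LDB2-/-. It rose 3.81-fold (log2 fold change 1.93, SE 0.43, edgeR adjusted p = 0.0119). Both calls held in all 15 alternatives.

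Hoxd9 had 10 and 14 counts in wild type against 57 and 93 counts in LDB2-/- and stayed below the filter, at up to 0.631 FPKM. Without a filter it was called higher (log2 fold change 2.92, SE 0.70, edgeR adjusted p = 0.0222). Hoxd3, whose annotated span contains Hoxd4, had 30 and 1 counts in wild type against 31 and 16 counts in LDB2-/-, and its groups overlapped. Hoxd11, farthest to the 5′ end among the members, had 11 counts in 1 LDB2-/- library and 0 in the other 3, where a count of 0 allows up to 0.0438 to 0.0522 CPM by the library total.

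The authors' deposited table gives its own adjusted p-values for this comparison, with 47.6% of its genes under 0.05. In the authors' deposited table, members past that threshold numbered 7 higher and 9 lower, and all 14 members called here passed there in the same direction.

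The make-up of paralog groups shifted, though the leading gene stayed the same in all 4 libraries in most groups described here (Hoxb2, Hoxb3, Hoxa5, Hoxb6, Hoxb8 and Hoxb9). In group 7 it changed, and the FPKM ratio of Hoxa7 to Hoxb7 was 1.50 and 1.52 in wild type against 0.326 and 0.389 in LDB2-/-. The pair thus switched order, and Hoxa7 went from 59.9% and 60.3% of the group's FPKM to 24.6% and 28.0%. In group 4, the only one besides group 9 with a member in every cluster here, the ratio of Hoxa4 to Hoxd4 was 6.05 and 9.17 in wild type against 0.766 and 0.539 in LDB2-/-. Hoxb4 held 35.5% and 36.3% of that group in wild type against 50.4% and 61.3% in LDB2-/-, without being called itself. Hoxc4 went from 33.3% and 37.5% to 15.7% and 14.0%, and Hoxd4 from 4.42% and 2.57% to 19.2% and 16.0%. The lead in group 4 was thus not stable within wild type: Hoxc4 led in wild type replicate 2, and Hoxb4 led in each other library.

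In group 8, which has no member in HoxA, the ratio of Hoxc8 to Hoxd8 was 3.36 and 5.21 in wild type against 0.507 and 0.587 in LDB2-/-. Hoxb8 led this group throughout, with 54.3% and 60.6% of its FPKM in wild type against 56.0% and 61.2% in LDB2-/-. Group 5 kept its order: Hoxa5 led with 75.6% and 70.3% in wild type against 62.2% and 59.0% in LDB2-/-. In group 9 the ratio of Hoxa9 to Hoxd9 went from 42.8 and 16.9 to 1.20 and 0.281, at low counts of Hoxd9 in wild type. In group 2, Hoxa2 went from 25.3% and 25.2% to 4.37% and 7.18% beside Hoxb2. These shares are a description with no test of their own.

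**Figure D4:**
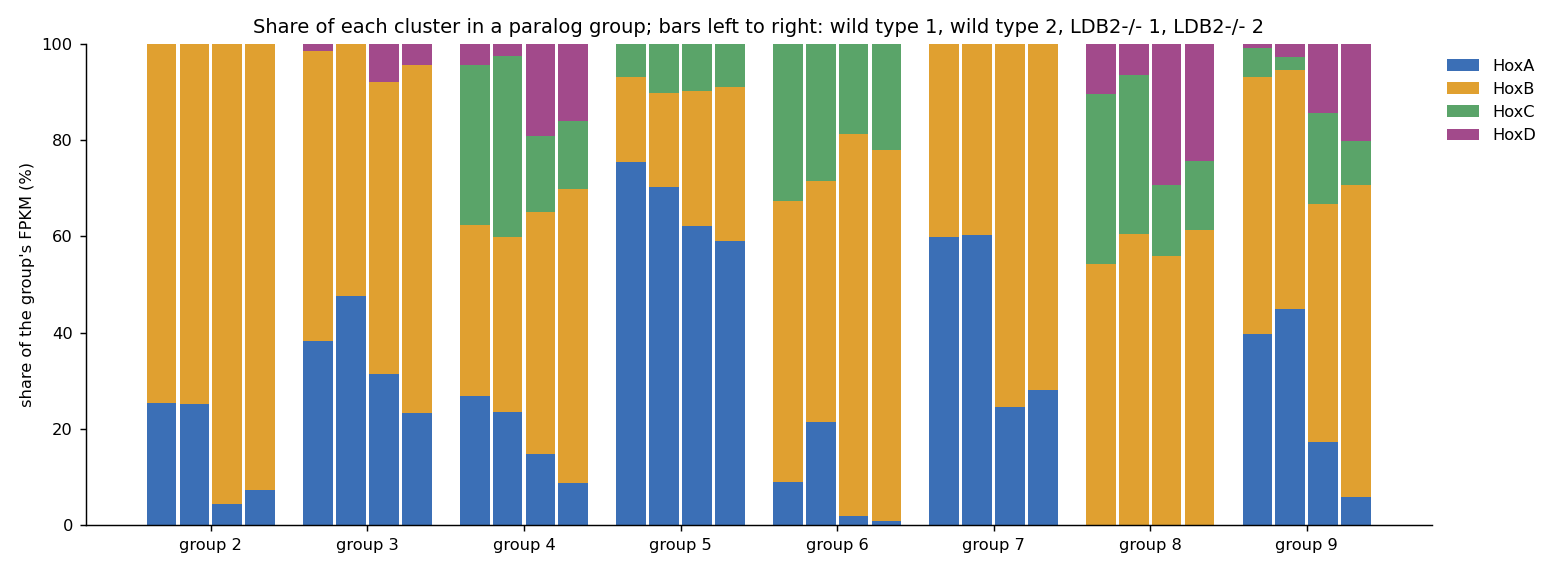
Share of each paralog group's FPKM held by each cluster (y axis, percent), for paralog groups 2 to 9 (x axis), with 4 bars per group in the order wild type 1, wild type 2, LDB2-/- 1, LDB2-/- 2. The HoxA part shrinks in every group that has one, for example from 59.9% and 60.3% to 24.6% and 28.0% in group 7, and the HoxD part grows in groups 4, 8 and 9.

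Non-coding transcripts inside the clusters followed the genes beside them in part. Hotairm1, a myeloid-associated RNA of the HoxA cluster, had 199 and 144 counts in wild type against 35 and 43 counts in LDB2-/-. It fell by 1.78 on the log2 scale (SE 0.34, edgeR adjusted p = 0.0071). Hotairm2, next to it, had 59 and 46 counts against 6 and 6 counts (log2 fold change -2.75, SE 0.50, edgeR adjusted p = 0.00566), a call lost without a filter (adjusted p = 0.0511). Hotairm2 passed the filter through wild type alone, so a lower value was close to required. The HoxA antisense RNAs Hoxaas2 (36 and 23 counts against 4 and 0) and Hoxaas3 (16 and 13 against 4 and 0) were not tested. In HoxB, Hoxb5os, transcribed from the minus strand across Hoxb5 and Hoxb6, had 21 and 25 counts in wild type against 140 and 142 counts in LDB2-/-. It rose by 2.95 on the log2 scale (SE 0.39, edgeR adjusted p = 0.00185), and passed the filter through LDB2-/- alone. Without strand information its reads cannot be told apart from those of Hoxb5 and Hoxb6.

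HoxB also carries the microRNA genes Mir196a-1 and Mir10a, whose mature products are shown with the seed (bases 2 to 8) in capitals, since miR-196a is known to cut the Hoxb8 transcript and the site can be read from the reference.
mmu-miR-196a-5p: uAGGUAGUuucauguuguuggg
mmu-miR-10a-5p: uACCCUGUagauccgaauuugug
The seeds differ. The best complement to miR-196a-5p among member transcripts lay in the 3′ UTR of Hoxb8 (chr11:96284888-96284909, plus strand, GRCm38), with 21 of 22 bases in Watson-Crick pairs and 15 of 22 in the next best member. In the Hoxb8 site, capitals mark the bases in Watson-Crick pairs with the microRNA.
Hoxb8 site: CCCAACAACATGAAACTgCCTA
The base in lower case faces position 5 of the microRNA, counted from its 5′ end, and can form a wobble pair with it. The Mir196a-1 row, which counts reads over the precursor and not the mature RNA, had 32 and 20 counts in wild type against 10 and 3 counts in LDB2-/-. It was not called (log2 fold change -1.59, SE 0.73, edgeR adjusted p = 0.111), though it passed without LDB2-/- replicate 1 (-2.83, adjusted p = 0.0124). Hoxb8 rose in the same libraries, and no link between them was tested. Mir10a had 7 and 1 counts against 3 and 0 counts.

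Of the TALE homeodomain proteins, which bind DNA together with HOX proteins or compete for the same sites, 9 of 11 genes were tested. Among them 1 was higher, 2 were lower and 6 were not called, with a median log2 fold change of -0.27, so 3 of 9 were called beside 57.2% of all genes tested. Meis2 gave 10.7 and 8.90 CPM against 2.90 and 1.82 CPM and fell 4.17-fold (-2.06, SE 0.31, edgeR adjusted p = 0.00296). Tgif2, a repressor of the same class, gave 2.68 and 3.62 CPM against 8.88 and 10.9 CPM and rose 3.14-fold (1.65, SE 0.27, edgeR adjusted p = 0.00376). Pbx4 gave 1.96 and 1.90 CPM against 1.07 and 0 CPM and was not called (-1.89, SE 1.25, edgeR adjusted p = 0.241). The filter passed Meis2 and Pbx4 through wild type alone, so a lower value was close to required of both. With scaling by the library total alone, 5 of the 9 were lower and 1 higher.

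Polycomb proteins keep Hox genes silent outside their domain. Of 22 tested subunit genes, 5 were higher (Cbx2, Cbx6, Jarid2, Phc1 and Phc2), 6 lower (Bmi1, Cbx7, Eed, Mtf2, Phf1 and Rnf2) and 11 not called, with a median of -0.15, so 11 of 22 were called beside the same 57.2%. Cbx6, a reader of the Polycomb mark, rose 6.49-fold (log2 fold change 2.70, SE 0.16, edgeR adjusted p = 0.000171). Phc1 rose 3.48-fold (1.8, SE 0.19, adjusted p = 0.000936), and Cbx7 fell 2.42-fold (-1.27, SE 0.20, adjusted p = 0.00325). Phc3 differed more between replicates than between genotypes, at 3.09 and 50.3 CPM against 2.03 and 16.9 CPM, and was not called (-1.49, SE 1.36, adjusted p = 0.381). Under the library total alone, 4 were higher and 12 lower.

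Trithorax proteins, which keep active Hox genes on, and H3K27 demethylases had 12 tested genes, of which 2 were higher, 4 lower and 6 not called, with a median of 0.00, so 6 of 12 were called beside 57.2%. Kmt2a (Mll1), the methyltransferase that maintains Hox expression, gave 68.5 and 104.5 CPM in wild type and 29.6 and 30.6 CPM in LDB2-/-. It fell 2.87-fold (log2 fold change -1.52, SE 0.21, edgeR adjusted p = 0.00222), with no overlap. Kmt2c (-1.29, SE 0.29, adjusted p = 0.0125), Kdm6a (-1.13, SE 0.14, adjusted p = 0.00169) and Kmt2d (112.6 and 165.9 CPM against 78.6 and 60.6 CPM, adjusted p = 0.0119) also fell. The 2 higher genes, Men1 and Wdr5, changed by 0.73 and 0.44. Under the library total alone, 1 was higher and 6 were lower.

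**Figure D5:**
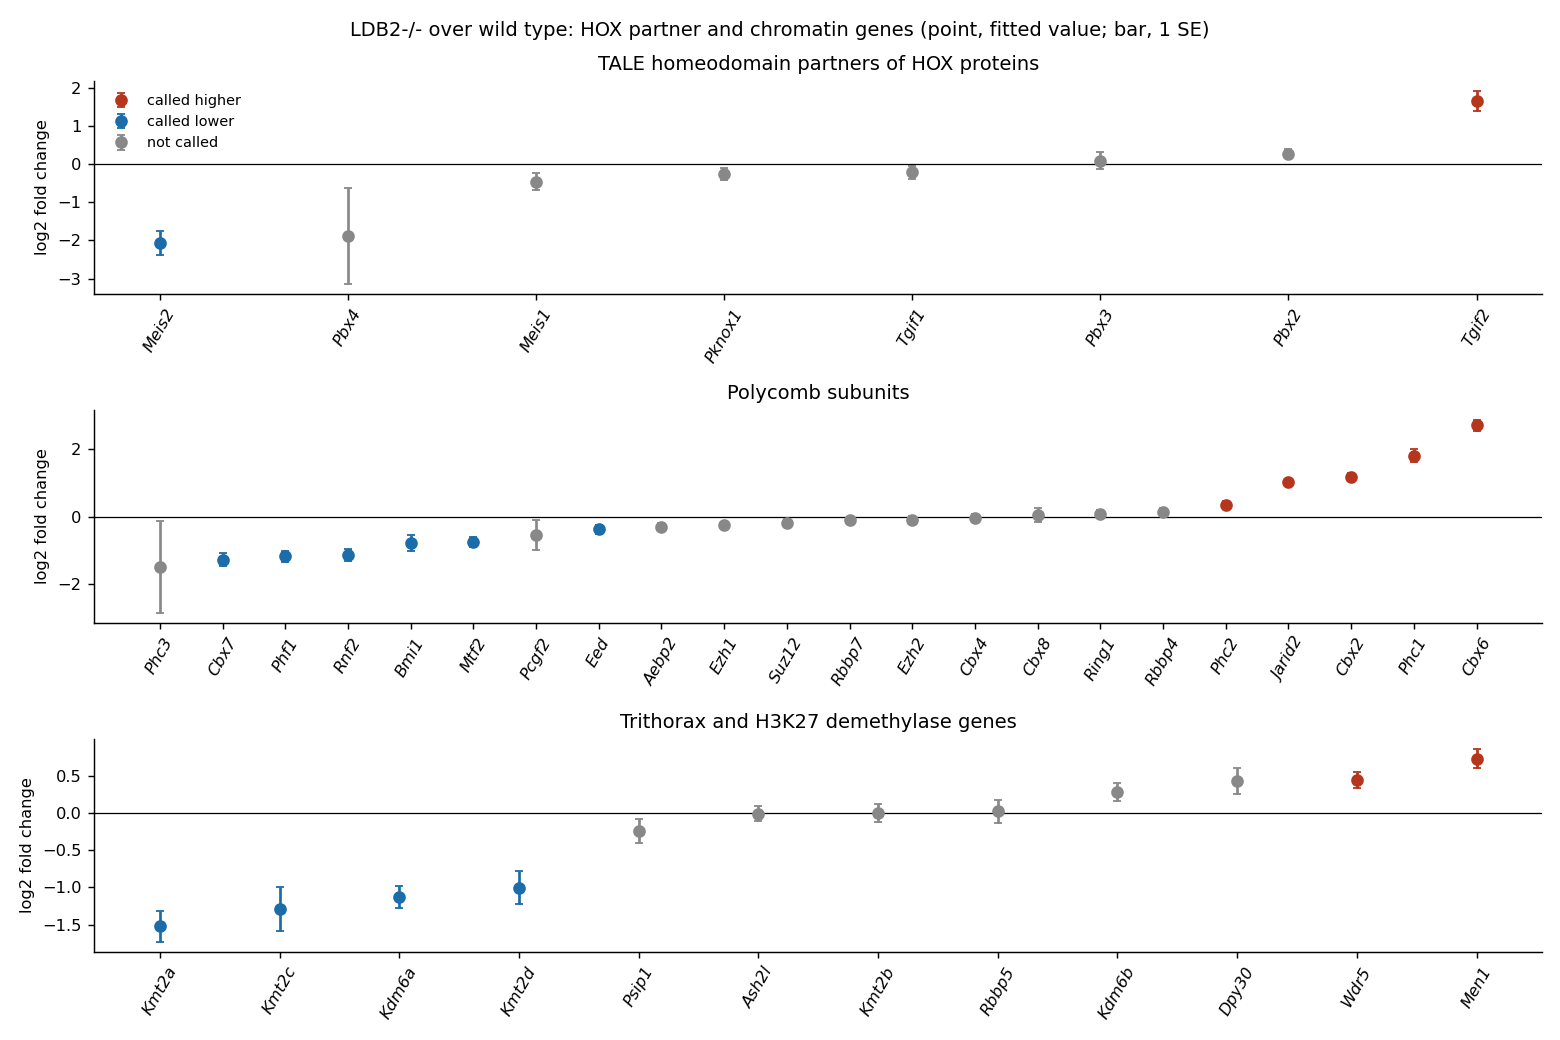
Log2 fold change, LDB2-/- over wild type (y axis; point, fitted value; bar, 1 SE), of tested TALE, Polycomb and Trithorax or demethylase gene (x axis, in order of fold change). Called genes lie on both sides of 0 in each list, from Meis2 at -2.06 to Tgif2 at 1.65 among TALE genes and from Cbx7 at -1.27 to Cbx6 at 2.70 among called Polycomb genes.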

How the data were processed

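RNA was from epidermal lysates of back skin, in 2 wild type and 2 LDB2-/- libraries grouped by the labels' genotype. Per the submitters' processing notes, bcl2fastq 1.8.4, HISAT2 2.1.0, StringTie 1.3.4d and build mm10 were used; settings, annotation and strandedness are not given in the sources used here. Per the file headers, the deposited table holds raw read counts and FPKM per gene and library, with the authors' signed fold change (a score) and adjusted p-value.

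Counts were tested with edgeR 4.0.16 (quasi-likelihood test, TMM scaling, two-sided, Benjamini-Hochberg adjustment over all 12400 genes tested, threshold 0.05) in R 4.3.3, for genes at 1 FPKM or more in at least 2 libraries. The biological coefficient of variation was 0.194. CPM are TMM-scaled, and FPKM were used for the filter, for limma and to compare levels between genes. Library depth was 54095522 to 68436842 counts, and intervals and limits from counts cover counting error only. On simulated data the fit recovered large changes but made more false calls than its threshold allows. Alternatives were other scalings, filters, DESeq2 1.42.0, limma 3.58.1 (pseudocounts 1 and 0.1), a robust fit, a replicate block, and leaving out each library in turn. A block of crossed replicate pairs was chosen after seeing the data.

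The members and gene lists were chosen with earlier results of these data known. Every member that passed the filter was named, as were untested members with 10 or more counts in a library, and in each list up to 4 tested genes with the largest absolute log2 fold change. A few genes that fall under these rules are counted in the totals but are not reported here, nor is 1 gene left out of the members. Coordinates, promoters and microRNAs are from RefSeq (GRCm38.p6) and transcripts from GENCODE vM21, in the same build as mm10.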

Additional observations from a re-analysis of the deposited data

How the results depend on the processing

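Of 14 called members, 10 kept the call in all 15 alternatives; the exceptions were Hoxa4, Hoxa9, Hoxb6 and Hoxb7. Of 315 member values under an alternative, 290 kept direction and side of the threshold. Members called higher numbered 5, and 3 with the library total alone and with limma on log2(FPKM + 1) and on log2(FPKM + 0.1); leaving out 1 library gave 3 to 5 higher (3 without wild type replicate 2 or LDB2-/- replicate 1) and 8 to 9 lower. HoxB genes called higher went from 3 to 1 in these same settings, and HoxC genes called lower from 1 to 2 with limma. Across all genes, 3521 higher and 3576 lower became 2248 and 5096 with the library total alone, 2393 and 5350 with limma (pseudocount 1) and 2354 and 5214 (0.1). The median over tested members, -0.40, was -0.72 with the library total, -0.66 with limma (0.1) and -0.13 without wild type replicate 1. Reversed values, all of genes not called, were Hoxb2 (-0.15 with the library total, -0.14 and -0.15 with limma), Hoxb4 (-0.045, -0.037 and -0.045), and, with 1 library left out, Hoxb5 (-0.11 to 0.054, positive without LDB2-/- replicate 2), Hoxb9 (-0.79 to 0.14) and Hoxc8 (-0.45 to 0.10, both positive without wild type replicate 1). By median FPKM over tested members in place of the sum, HoxA ranked 3 and HoxC 2 in wild type, and HoxA 4 and HoxD 2 in LDB2-/-, where HoxD rests on 2 of 5 members (Hoxd4 through LDB2-/- alone). Over all members, a measure added after seeing the data, HoxA ranked 3 and HoxC 2 in both genotypes and HoxD stayed 4.

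TALE genes called lower went from 2 to 5, 6 and 5, and Polycomb genes from 6 to 12 each, with the library total and limma. Trithorax genes called higher went from 2 to 1 in these settings, with the replicate block and without LDB2-/- replicate 2, and to 4 with crossed pairs. Upstream regulators called higher went from 3 to 7 without a filter and 8 with either count filter, and those called lower from 1 to 3 with the library total and limma, and 2 with DESeq2 and crossed pairs. The cause was not tested.

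Same-numbered libraries deviated in opposite directions (correlation -0.21 over genes), so the numbers are not taken to pair the samples. The replicate block gave 6092 calls against 7097, and 5 higher and 9 lower members. Crossed pairs as a block gave 7269 calls, and 4 higher and 7 lower members. Depth limits Hoxb1, Hoxd3, Hoxd9 and Hoxd11, whose counts in wild type reached at most 30.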

Other observations

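Regulators that act upstream of Hox genes in the embryo were mixed. Of 8 tested, 3 were higher, 1 lower and 4 not called, beside 28.4% higher and 28.8% lower among all genes tested. Aldh1a3, which makes retinoic acid, gave 1.66 and 3.28 CPM in wild type and 65.3 and 56.2 CPM in LDB2-/- (log2 fold change 4.63, SE 0.35, edgeR adjusted p = 0.000306). Its relative Aldh1a1 was lower, at 6.61 and 7.69 CPM against 2.82 and 2.96 CPM (adjusted p = 0.00608). Cyp26b1, which breaks retinoic acid down, was higher (log2 fold change 0.70, edgeR adjusted p = 0.0299), a call lost in 5 of 15 alternatives. Cdx1 and Cyp26a1 were at 0 in both wild type libraries, where a count of 0 allows up to 3 counts, and no change is read from this.

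Of 16 tested homeobox genes of skin outside the Hox clusters, 10 were higher in LDB2-/- and 6 lower, beside 28.4% higher and 28.8% lower among all genes tested. The filter passed 4 of the 10 (Dlx1, Dlx2, Dlx4 and Msx1) through LDB2-/- alone and 1 of the 6 (Satb1) through wild type alone, so these had to differ. Msx2, a gene of the hair matrix, gave 5.43 and 5.88 CPM in wild type and 351.6 and 396.3 CPM in LDB2-/- (log2 fold change 6.05, SE 0.15, edgeR adjusted p = 6.49e-05). Dlx1, Msx1 and Dlx2 had log2 fold changes of 5.58, 5.25 and 5.23. These 4 had the largest changes of the list, and 2 of them, Msx1 and Msx2, are also in the hair list given with the cell type markers.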
